A study of Mus musculus with 8 samples.

Results

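Il2 and the genes of the common gamma chain receptor family were described here across the libraries of visceral fat ILC2s: Il2ra, Il2rb, Il2rg, Il7r, Il4ra, Il9r, Il21r, Il15ra and Il2. The 9 genes were taken by symbol from a table of 39527 genes, and all 9 were expressed highly enough to be among the 11483 genes tested. Group 2 innate lymphoid cells (ILC2s) are lymphocytes without rearranged antigen receptors that make type 2 cytokines in tissues. They had been sorted from epididymal visceral adipose tissue of wild-type C57BL/6 males aged 14 weeks. One group had eaten a high-fat diet for 8 weeks, from 6 weeks of age (libraries H1 to H4), and the other a normal diet over that time (libraries N1 to N4). Neither group carried a mutation or received a drug by the labels, and the series title concerns the kinase LKB1 in ILC2s. Whether a library came from 1 animal or a pool is not stated, so p-values measure the spread between libraries, which may be technical.

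The common gamma chain, encoded by Il2rg, is the signalling subunit shared by the receptors for interleukin-2, interleukin-4, interleukin-7, interleukin-9, interleukin-15 and interleukin-21. Each receptor adds a chain of its own, and the chains carry the kinases JAK1 and JAK3, which phosphorylate STAT proteins when the cytokine binds. Lymphoid cells depend on the family for survival and growth: mouse ILC2s need interleukin-7 to develop, and interleukin-2 and interleukin-9 sustain them in tissues. The high-affinity interleukin-2 receptor is a complex of the Il2ra, Il2rb and Il2rg products, and the interleukin-15 receptor replaces only the first of these, by the Il15ra product.

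On the high-fat diet the transcripts of all 3 chains of the high-affinity interleukin-2 receptor and of Il15ra fell, while Il2 itself rose. These were 4 falls and 1 rise among 9 genes at an adjusted p below 0.05 (limma on log2(FPKM + 1), Benjamini-Hochberg over all tested genes). Over all tested genes 2.86% were called, 1.88% as lower and 0.975% as higher. The split depended on the setting: 112 genes rose and 216 fell as reported, and 226 rose and 204 fell under quantile normalization. With voom on recovered reads, which changes the values, the scaling and the method together, 1117 rose and 388 fell, and 416 rose and 783 fell when library medians were also made equal. The median log2 fold change of the 9 genes was -0.63, beside -0.02 over all tested genes. Il4ra, Il7r, Il9r and Il21r did not pass. The diets did not overlap for 7 of the 9 genes, 5 with lower and 2 with higher values on the high-fat diet, where 11.1% of all tested genes did not overlap, 6.76% lower and 4.31% higher. Levels are FPKM, the deposited fragments per kilobase of gene scaled to the library, and fold changes are high-fat over normal diet.

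**Figure D1:**
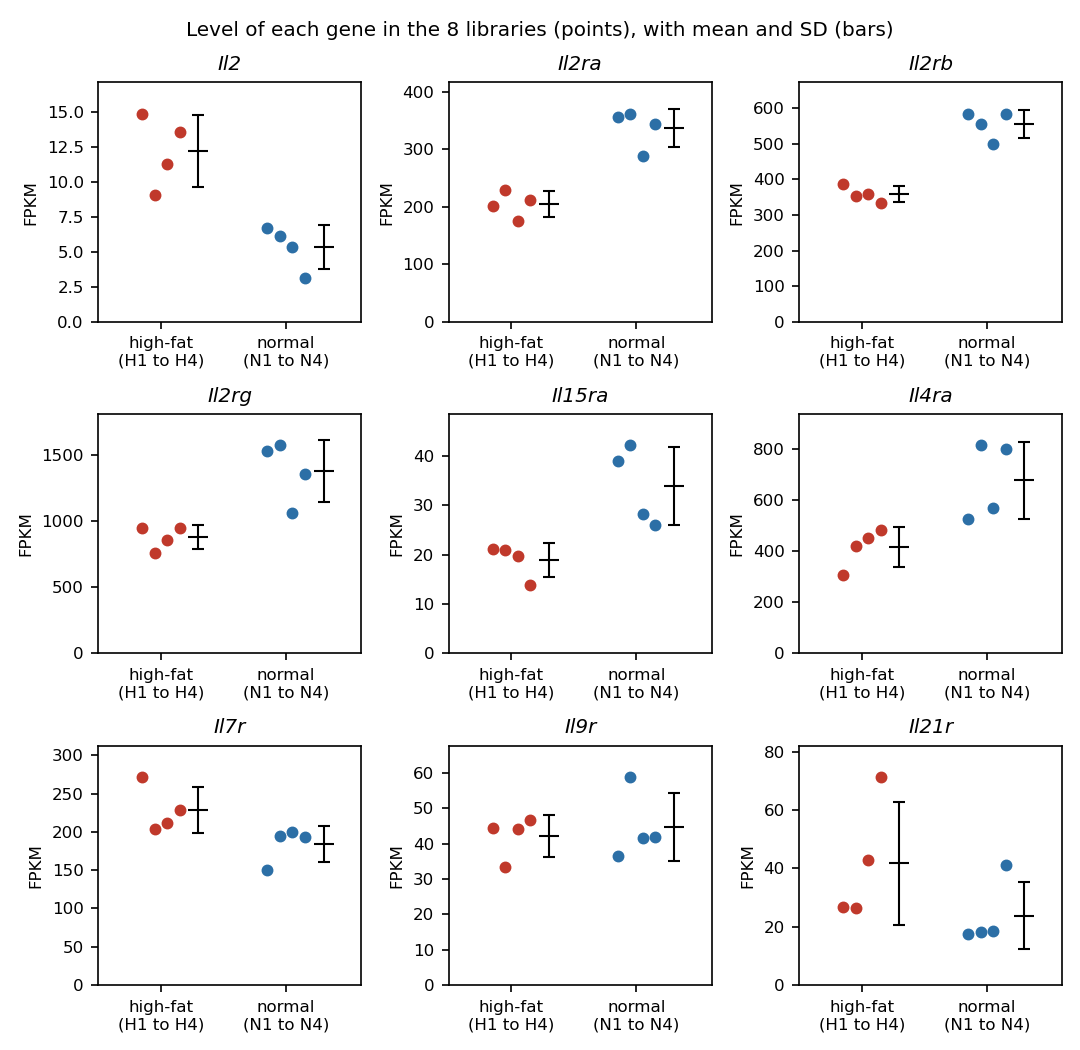
FPKM of each of the 9 genes, 1 panel per gene, with the high-fat libraries H1 to H4 at the left (red) and N1 to N4 of the normal diet at the right (blue). Points are libraries and bars are the mean and SD of 4 libraries. The diets separate for Il2, the 3 interleukin-2 receptor chains, Il15ra, Il4ra and Il7r and overlap for Il9r and Il21r.

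The libraries held 9005363 to 15752815 recovered reads on genes, the fewest in H2. Of 13 ILC2 markers all were tested and 2 fell, Il5 and Gata3, and the summed level of the list was 6918 to 7876 FPKM in H1 to H4 and 8565 to 10446 FPKM in N1 to N4, without overlap. In sorted cells of this kind, fewer cells of a type and less RNA per cell cannot be told apart. Markers of other cells were also found. The 14 T cell markers summed to 861 to 1645 FPKM in high-fat libraries and 802 to 1094 FPKM in normal-diet libraries, none of the 12 tested passed, and Cd8a was at 0 in some libraries. Trbc1, Trbc2, Trac and Cd3g made up most of the T cell sum. The 6 mast cell markers summed to 1700 to 7788 FPKM in high-fat libraries and 3715 to 7925 FPKM in normal-diet libraries, and none passed. The 5 endothelial markers summed to 23.1 to 132 FPKM in high-fat libraries, above the 13.6 to 18.8 FPKM in normal-diet libraries, and Fabp4 was the 1 called. The 5 regulatory T cell markers summed to 631 to 871 FPKM in high-fat libraries and 835 to 1242 FPKM in normal-diet libraries, and none passed. Most of this sum was Tnfrsf18, at 581 to 781 FPKM in H1 to H4 and 806 to 1218 FPKM in N1 to N4. The other 4 had fold changes above 0, the largest for Ctla4, at 33.4, 21.5, 27.1 and 55.7 FPKM in H1 to H4 and 7.10, 5.04, 10.1 and 23.4 FPKM in N1 to N4 (log2 fold change 1.64, limma, adjusted p = 0.116). The 4 stromal markers summed to 4.52 to 31.4 FPKM with high-fat feeding and 1.76 to 8.10 FPKM with the normal diet. The lists for natural killer cells, B cells, macrophages, dendritic cells and adipocytes summed to at most 12.7 FPKM in any library. Of these, Xcr1 of the dendritic cell list fell, and the natural killer cell genes Ncr1, Eomes and Klrb1c stayed at or below 1.02 FPKM. Gzma and Tbx21 of that list reached 1.42 and 1.48 FPKM, both in H1. Prf1, its only tested gene, was at 2.21 to 3.04 FPKM in H1 to H4 and 3.36 to 9.75 FPKM in N1 to N4. The diets did not overlap for Prf1, but it did not pass (log2 fold change -0.72, limma, adjusted p = 0.137). The part of these cells in the results was not tested.

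The promoters of 4 genes are shown first, because they belong to the gene that rose (Il2), to a pair of receptor genes that fell (Il2ra and Il2rg) and to the receptor gene whose libraries separated in the other direction (Il7r). Each runs from 250 bases before to 50 bases after the RefSeq start site (build GRCm38.p6), read 5′ to 3′ on the strand of the gene. Of the 9 genes 8 had an entry. Capitals mark matches, on either strand, to the core of NFAT sites (GGAAA), to the palindrome of STAT5 sites (TTCNNNGAA), to AP-1 sites (TGANTCA) and to NF-kB sites (GGGNNNNNCC), which may overlap one another.
Il2 (chr3:37125905-37126204, minus strand): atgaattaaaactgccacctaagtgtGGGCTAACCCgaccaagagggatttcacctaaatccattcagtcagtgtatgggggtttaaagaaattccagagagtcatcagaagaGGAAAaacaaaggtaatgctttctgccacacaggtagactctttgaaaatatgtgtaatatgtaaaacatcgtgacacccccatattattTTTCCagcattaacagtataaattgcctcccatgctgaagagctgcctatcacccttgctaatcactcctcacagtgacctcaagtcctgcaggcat
Il2ra (chr2:11642542-11642841, plus strand): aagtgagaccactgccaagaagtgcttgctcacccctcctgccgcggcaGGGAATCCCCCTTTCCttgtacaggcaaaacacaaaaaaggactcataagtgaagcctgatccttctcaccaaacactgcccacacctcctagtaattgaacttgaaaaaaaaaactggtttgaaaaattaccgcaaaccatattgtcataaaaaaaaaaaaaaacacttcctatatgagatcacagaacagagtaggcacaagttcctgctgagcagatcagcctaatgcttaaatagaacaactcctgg
Il2rg (chrX:101268206-101268505, minus strand): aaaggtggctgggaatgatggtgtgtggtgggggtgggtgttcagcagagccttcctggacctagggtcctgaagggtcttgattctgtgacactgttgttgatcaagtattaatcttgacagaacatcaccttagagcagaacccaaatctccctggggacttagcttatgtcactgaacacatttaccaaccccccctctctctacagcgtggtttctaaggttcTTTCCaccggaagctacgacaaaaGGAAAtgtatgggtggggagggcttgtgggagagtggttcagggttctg
Il7r (chr15:9529827-9530126, minus strand): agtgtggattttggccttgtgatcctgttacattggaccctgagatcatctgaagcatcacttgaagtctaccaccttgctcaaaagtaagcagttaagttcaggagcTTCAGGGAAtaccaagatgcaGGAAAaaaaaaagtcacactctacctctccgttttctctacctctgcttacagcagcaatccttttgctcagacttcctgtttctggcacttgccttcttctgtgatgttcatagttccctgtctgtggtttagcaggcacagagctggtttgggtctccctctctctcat

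The Il2 promoter held 2 NFAT cores, starting 137 and 47 bases before the start site, and 1 NF-kB match. The Il2ra promoter held 2 overlapping NF-kB matches and an NFAT core just downstream of them, starting 190 bases before the start site. The Il2rg promoter held 2 NFAT cores. The STAT5 palindrome occurred in the Il7r window alone among the 9 windows of the 8 genes, 142 bases before the RefSeq start. By the GENCODE positions this whole window lies inside Il7r, whose upstream end is there at 9530176. Over 32851 promoters of the same length, 61.3% held the NFAT core, 50.8% the NF-kB letters, 8.30% the STAT5 palindrome and 7.81% the AP-1 letters, so the first 2 motifs are common. A match is a run of letters and not a measured binding site.

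Il2 encodes interleukin-2, a growth factor of lymphocytes best known as a product of activated T cells. The gene lies on chromosome 3 (37120523 to 37125959, minus strand, mm10). It was at 14.8, 9.03, 11.3 and 13.5 FPKM in H1 to H4, against 6.69, 6.11, 5.34 and 3.15 FPKM in N1 to N4. Every high-fat library lay above every normal-diet library. This gave a log2 fold change of 1.08 (standard error 0.21, limma, adjusted p = 0.0123). These levels rested on few reads, 148, 91, 123 and 173 in the high-fat libraries and 64, 64, 64 and 39 in the normal-diet libraries. In reads per 1000000 recovered reads (RPM), Il2 averaged 10.1 ± 0.742 RPM on the high-fat diet and 4.20 ± 1.16 RPM on the normal diet (SD, n = 4 each). The call ended without H4 (adjusted p = 0.0538). Adad1, on the opposite strand, overlaps Il2 but shares no exon bases with it, and its level was 0.227 to 0.529 FPKM in high-fat libraries and 0.128 to 0.211 FPKM in normal-diet libraries.

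T cell transcripts varied between these libraries, and their part in the Il2 result was not tested. Foxp3, the transcription factor of regulatory T cells, was at 9.36, 5.35, 8.34 and 16.8 FPKM in H1 to H4 and at 1.81, 1.45, 3.30 and 11.5 FPKM in N1 to N4. Cd4 was at 6.68, 5.62, 15.5 and 18.5 FPKM in the high-fat libraries and at 2.88, 2.68, 3.58 and 15.9 FPKM in the normal-diet libraries. Cd3e was at 10.7, 7.33, 13.6 and 15.1 FPKM in H1 to H4 and at 3.62, 2.49, 2.89 and 11.6 FPKM in N1 to N4. The diets overlapped for all 3 of these genes, and none passed. All 14 T cell markers together summed to 1645, 861, 1212 and 1531 FPKM in H1 to H4 and to 802, 929, 869 and 1094 FPKM in N1 to N4. Among the high-fat libraries, H1 had the highest and H2 the lowest sum, and the same libraries had the highest and the lowest Il2 in FPKM. This match was not kept in recovered reads, where Il2 was at 10.25, 10.11, 9.18 and 10.98 RPM in H1 to H4. On that scale H4 had the highest and H3 the lowest Il2. Among the normal-diet libraries, N4 had the highest sum and the lowest Il2, and N1 had the lowest sum and the highest Il2. These sums were mostly Trbc1, Trbc2, Trac and Cd3g, and their order was not that of the other T cell transcripts given here. By Foxp3, Cd4 and Cd3e, H4 and N4 were the highest and H2 and N2 the lowest of their diets. Fold changes were above 0 for every tested T cell marker but Themis, though none passed. Without H4 and N4, the library of each diet highest in Foxp3, Cd4 and Cd3e, the log2 fold change of Il2 was 0.83 (adjusted p = 0.0944). In that fit 19 genes rose and 36 fell over the whole table, beside 112 and 216 with all libraries.

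**Figure D2:**
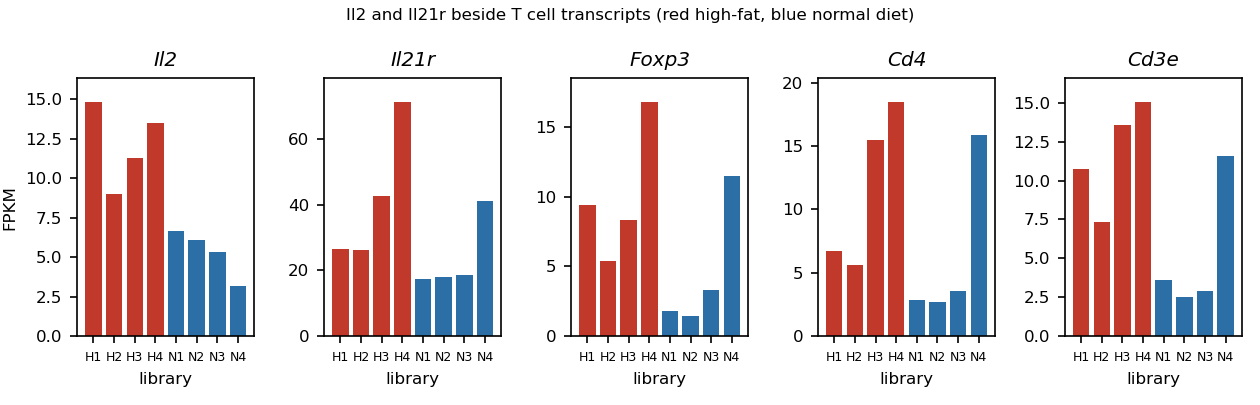
FPKM of Il2 and Il21r and of the T cell transcripts Foxp3, Cd4 and Cd3e in each library, with the high-fat libraries at the left (red) and the normal-diet libraries at the right (blue); bars are single libraries. N4 holds the highest Foxp3, Cd4, Cd3e and Il21r of the normal-diet libraries and the lowest Il2.

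The alpha chain of the interleukin-2 receptor, CD25, gives the complex its high affinity and is encoded by Il2ra on chromosome 2 (11642807 to 11693193). Il2ra was at 202, 229, 175 and 212 FPKM in H1 to H4, against 356, 362, 289 and 343 FPKM in N1 to N4. The highest high-fat library stayed below the lowest normal-diet library. The means were 205 ± 22.7 FPKM with high-fat feeding and 338 ± 33.3 FPKM with the normal diet (SD, n = 4 each), and the log2 fold change was -0.72 (standard error 0.14, limma, adjusted p = 0.0152). The interval of the fold change at 95% ran from -1.03 to -0.41. The call ended without H3 (adjusted p = 0.0711) without N1 (0.0523) and without both libraries numbered 4 (0.105), and Il2ra passed in 17 of 20 other settings.

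The beta chain, shared by the receptors for interleukin-2 and interleukin-15 and one of their signalling subunits, is encoded by Il2rb on chromosome 15 (78479256 to 78495271). Il2rb was at 388, 353, 360 and 334 FPKM in the high-fat libraries, against 584, 556, 500 and 584 FPKM in the normal-diet libraries. The lowest normal-diet library stood well above the highest high-fat library. Its log2 fold change was -0.63 (standard error 0.13, limma, adjusted p = 0.0192). Its call ended without H3, H4, N1 or N4, with adjusted p up to 0.0733, and with the replicate number as a block (0.0608).

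The common gamma chain gene, Il2rg, lies on the X chromosome (101264378 to 101268255) and was the most abundant of the family. Il2rg was at 949, 759, 858 and 950.2 FPKM in the high-fat libraries, against 1526, 1571, 1058 and 1356 FPKM in the normal-diet libraries. The gap between the diets lay between H4 and N3. In recovered reads the diets lay further apart, at 1099 to 1142 RPM in H1 to H4 and 1410 to 1563 RPM in N1 to N4. Between the diets the log2 fold change in FPKM was -0.64 (standard error 0.16, limma, adjusted p = 0.0428). It was smaller with the recycled factor of the deposited values divided out (-0.55, limma, adjusted p = 0.0179). With voom on recovered reads it was -0.39 (adjusted p = 0.0034), where 13.1% of genes were called. Of the called genes Il2rg passed in the fewest settings, since its call ended when any library but N3 was left out (limma, adjusted p up to 0.125), under quantile normalization (0.0814) and with the block (0.0819). The overlapping annotated gene Gm20489 shares 728 exon bases with Il2rg on the same strand, and 0 to 9 reads, recovered from deposited values below 0, were assigned to it per library.

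Il15ra, on chromosome 2 (11705290 to 11734317), encodes the alpha chain that binds interleukin-15 with high affinity and can present it to neighbouring cells. It was at 21.2, 20.9, 19.7 and 13.8 FPKM in the high-fat libraries, against 39.0, 42.1, 28.3 and 26.0 FPKM in the normal-diet libraries. Again the diets did not overlap, and within each diet the library numbered 4 was the lowest. The log2 fold change was -0.80 (standard error 0.19, limma, adjusted p = 0.0328), and the call ended without H1, H3, H4, N1 or N2 (adjusted p up to 0.113). Il15ra is the next protein-coding gene downstream of Il2ra, 12.1 kb away.

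Il4ra encodes the chain that binds interleukin-4 and, paired with Il13ra1, interleukin-13. It lies on chromosome 7 (125552120 to 125579474). Il4ra was at 306, 421, 449 and 484 FPKM in the high-fat libraries, against 525, 812, 569 and 798 FPKM in the normal-diet libraries. All high-fat libraries were lower than all normal-diet libraries, but the spread within the diets was wide. Its log2 fold change of -0.70 (standard error 0.19) did not pass (limma, adjusted p = 0.0613), and its interval ran from -1.10 to -0.30. It passed at equal library medians (0.0459), with the recycled factor of the deposited values divided out (0.0278) and on recovered reads (0.0170). On the recovered reads the background was larger, with 13.1% of genes called. The antisense gene Gm44876 shares 571 exon bases with Il4ra, and 2 to 9 reads, again from values below 0, were assigned to it per library. The libraries do not mark the strand, so reads of such pairs cannot be told apart.

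Il7r, on chromosome 15 (9505788 to 9530176), encodes the interleukin-7 receptor alpha chain, which also serves the receptor for TSLP. Il7r was at 272, 203, 212 and 229 FPKM in the high-fat libraries, against 150, 194, 199 and 193 FPKM in the normal-diet libraries. The diets did not overlap, but H2 lay close above N3. The log2 fold change was 0.31 with an interval of -0.01 to 0.64 and did not pass (limma, adjusted p = 0.293). On the scale of recovered reads the libraries lay closer together, at 699, 652, 632 and 675 RPM in H1 to H4 and 424, 472, 474 and 501 RPM in N1 to N4. Under quantile normalization Il7r was called higher (log2 fold change 0.48, limma, adjusted p = 0.0421). An alternative added once the data had been seen, voom on the recovered reads, also called it higher (log2 fold change 0.51, adjusted p = 0.00169). On the voom scale the median of all tested genes was itself shifted by 0.14, and the difference of Il7r from it was 0.37. At equal library medians on recovered reads it was called too (0.35, adjusted p = 0.0226), where 10.4% of genes were called.

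Il7r and Il2ra changed places in the order of mean levels, though their ranges overlapped on the high-fat diet and Il2ra stayed the higher in H2. Their ratio in FPKM was 1.35, 0.886, 1.21 and 1.08 in H1 to H4, against 0.421, 0.537, 0.690 and 0.562 in N1 to N4. On the log2 scale the mean ratio was higher by 1.04 on the high-fat diet, with no overlap between the diets. The pair was chosen after its values were seen, and the exact permutation test gave p = 0.0286, two-sided, the smallest that 4 against 4 libraries allow.

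Il9r and Il21r did not separate the diets. Il9r, the chain specific to interleukin-9, was at 44.3, 33.3, 44.1 and 46.7 FPKM in the high-fat libraries and at 36.5, 58.8, 41.6 and 41.8 FPKM in the normal-diet libraries. Its log2 fold change was -0.07 with an interval of -0.44 to 0.29 (limma, adjusted p = 0.872), and its sign changed in 5 of 20 other settings. Il21r, the chain specific to interleukin-21, was at 26.6, 26.3, 42.7 and 71.3 FPKM in the high-fat libraries and at 17.4, 18.1, 18.5 and 41.2 FPKM in the normal-diet libraries. H4 and N4 stood apart in Il21r, and these libraries also held the most Foxp3 and Cd4 of their diets. The log2 fold change of Il21r was 0.76 with an interval of -0.11 to 1.63 (limma, adjusted p = 0.341). The part of T cell RNA in these values was not tested. Il21r lies 24.0 kb downstream of Il4ra with no protein-coding gene between them, and the fold changes of the neighbours had opposite signs.

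Per length of gene, the receptors covered a wide range of levels. On the high-fat diet the order of mean FPKM was Il2rg (879 ± 90.8), Il4ra (415 ± 77.0), Il2rb (359 ± 22.4), Il7r (229 ± 30.4), Il2ra (205 ± 22.7), Il9r (42.1 ± 5.97), Il21r (41.7 ± 21.1), Il15ra (18.9 ± 3.47) and Il2 (12.2 ± 2.56) (SD, n = 4). The ranges of Il4ra and Il2rb, Il7r and Il2ra, Il9r and Il21r, and Il15ra and Il2 overlapped, and the other neighbours were apart. On the normal diet the order was Il2rg (1378 ± 232), Il4ra (676 ± 150.4), Il2rb (556 ± 39.7), Il2ra (338 ± 33.3), Il7r (184 ± 23.0), Il9r (44.7 ± 9.73), Il15ra (33.9 ± 7.90), Il21r (23.8 ± 11.6) and Il2 (5.32 ± 1.55). There Il4ra overlapped Il2rb, and Il15ra overlapped both Il9r and Il21r, while Il2ra stood apart from Il7r. Il2rg ranked 70 and Il2 ranked 5994 among the tested genes by mean level.

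The chains that pair with the common gamma chain were next set against it. Within each library the level of every gene was set against that of Il2rg, and the log2 ratios were fitted over all genes. This removes any scaling common to the genes of a library, but not the recycled factor of the deposited values, which differs between genes. The ratio of Il2rb to Il2rg differed by 0.01 between the diets, with an interval of -0.32 to 0.33. That of Il2ra differed by -0.08 (-0.42 to 0.25), that of Il4ra by -0.06 (-0.47 to 0.35) and that of Il15ra by -0.17 (-0.57 to 0.24). None of these 4 passed, which does not show that the ratios were equal, since the intervals are wide. Il2, Il21r, Il7r and Il9r were higher relative to Il2rg, by 1.71, 1.40, 0.95 and 0.56 (limma, adjusted p = 5.43e-05, 0.0162, 0.000797 and 0.0113). Of all other tested genes 61% were called in this fit, 60.8% as higher and 0.226% as lower, so a rise relative to Il2rg was the common case. With the recycled factor divided out, the ratio of Il2ra differed by -0.15 and that of Il2rb by -0.04, and the same members passed.

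**Figure D3:**
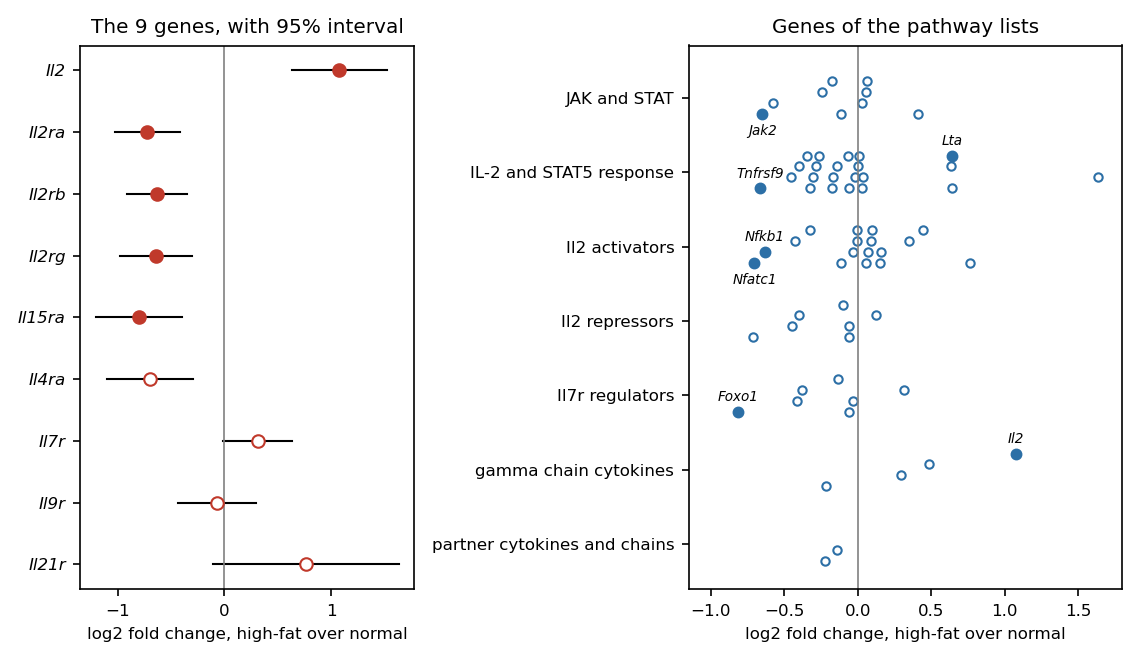
Log2 fold change, high-fat over normal diet, of the 9 genes with the 95% interval (left) and of the tested genes of the 7 pathway lists (right, 1 point per gene). Filled points passed at an adjusted p below 0.05, and those at the right are named. The interleukin-2 and interleukin-15 receptor chains lie between -0.80 and -0.63, and Il2 lies at 1.08.

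The other cytokines of the family were low or did not pass. Of 6 gamma chain cytokines 4 were tested, and Il2 was the only call. Il4, a type 2 cytokine, was at 18.1 to 39.9 FPKM in high-fat libraries and 28.8 to 33.8 FPKM in normal-diet libraries (limma, adjusted p = 0.608). Il7 was at 2.32 to 3.55 FPKM in H1 to H4 and 0.858 to 3.91 FPKM in N1 to N4, and Il15 at 1.11 to 2.54 FPKM in H1 to H4 and 0.191 to 1.17 FPKM in N1 to N4. Il9 was at 0 to 0.442 FPKM in the high-fat libraries and 0.574 to 2.22 FPKM in the normal-diet libraries, and Il21 at 0 to 0.317 FPKM in the high-fat libraries and 0 to 0.0307 FPKM in the normal-diet libraries, both below the level needed for a test. Of the partner cytokines and chains, neither Crlf2, the TSLP receptor chain that pairs with the Il7r product, nor Il13 passed (log2 fold change -0.14 and -0.22, limma, adjusted p = 0.725 and 0.618). Il13ra1 did not exceed 0.660 FPKM in any library.

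Downstream of the receptors, 1 of 9 JAK and STAT genes passed, and it fell, beside 1.88% called lower over all tested genes. Jak2, a kinase of cytokine receptors, was at 35.0, 51.7, 47.4 and 44.1 FPKM in H1 to H4, against 67.6, 69.5, 63.9 and 79.0 FPKM in N1 to N4. The diets did not overlap (log2 fold change -0.65, limma, adjusted p = 0.0325), but the call ended when any library but H2 was left out (adjusted p up to 0.0895). Jak1 and Jak3, the kinases bound to the receptor chains here, differed by -0.11 and 0.03. Stat5a and Stat5b, the main mediators of interleukin-2 and interleukin-7, differed by 0.05 and 0.41 and did not pass. Stat6, which acts below the interleukin-4 receptor and is named after its values were seen, was at 492, 487, 562 and 760.1 FPKM in H1 to H4 and at 738, 964, 827 and 857 FPKM in N1 to N4 (-0.57, limma, adjusted p = 0.0755). H4 alone overlapped the normal-diet range, and without H4 Stat6 passed (-0.72, adjusted p = 0.0486).

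Among 22 genes of the interleukin-2 and STAT5 response 1 rose, 1 fell and 20 did not pass, and the median log2 fold change was -0.10. Over all tested genes 0.975% were called higher and 1.88% lower. Lta, encoding lymphotoxin alpha, was at 32.1, 29.1, 29.4 and 28.6 FPKM in the high-fat libraries, against 19.2, 21.03, 20.9 and 14.6 FPKM in the normal-diet libraries (0.64, limma, adjusted p = 0.0324). Tnfrsf9, a costimulatory receptor, was at 47.2, 46.0, 42.0 and 59.3 FPKM in H1 to H4, against 89.0, 63.4, 77.1 and 80.6 FPKM in N1 to N4 (-0.66, adjusted p = 0.0337). The call of Lta ended when any library but H2 or N3 was left out (adjusted p up to 0.0965), and that of Tnfrsf9 without H1, H3, N1, N3 or N4 (up to 0.129). Of the 22 genes, 7 had fold changes above 0 and 15 below 0. Gadd45b, Tnfrsf4, Ctla4, Cish and Socs2 are named after their values were seen. Gadd45b was at 2346 to 3820 FPKM in H1 to H4 and 1478 to 2264 FPKM in N1 to N4, without overlap (0.63, adjusted p = 0.0863). Tnfrsf4 and Ctla4 differed by 0.64 and 1.64, with overlap (adjusted p = 0.456 and 0.116). None of Gadd45b, Tnfrsf4 and Ctla4 passed. Cish and Socs2 are feedback inhibitors that STAT5 induces. Cish was at 208 to 265.1 FPKM in H1 to H4 and 265.0 to 359 FPKM in N1 to N4 (-0.40, adjusted p = 0.163), and Socs2 at 135 to 158 FPKM in H1 to H4 and 171 to 254 FPKM in N1 to N4 (-0.46, adjusted p = 0.118). Neither passed.

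Genes that act on Il2 and Il7r transcription were also examined. Of 17 activators of Il2 transcription 2 fell and none rose, with a median log2 fold change of 0.06. Over all tested genes 1.88% were called lower and 0.975% higher. Nfatc1, a calcium-dependent factor, was at 41.4, 43.5, 43.8 and 54.4 FPKM in the high-fat libraries, against 63.5, 87.6, 74.0 and 75.7 FPKM in the normal-diet libraries (-0.70, limma, adjusted p = 0.0202). Nfkb1, a subunit of NF-kB, was at 201, 198, 204 and 193 FPKM in H1 to H4, against 274, 319.8, 271 and 385 FPKM in N1 to N4 (-0.63, adjusted p = 0.0297). The call of Nfatc1 ended without H1, H3 or N2, and that of Nfkb1 when any library but H2 or N3 was left out (adjusted p up to 0.0794 and 0.0926). None of 7 repressors of Il2 passed, and the most abundant of them, Crem and Ikzf3, differed by -0.40 and -0.45 (adjusted p = 0.193 and 0.113).

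Of 7 regulators of Il7r 1 passed, and it fell, beside 1.88% called lower over all tested genes. Foxo1, which activates Il7r in mouse T cells, was at 7.07, 7.80, 9.87 and 8.09 FPKM in the high-fat libraries, against 16.95, 14.8, 13.0 and 15.9 FPKM in the normal-diet libraries. The diets did not overlap, and the log2 fold change was -0.82 (limma, adjusted p = 0.0104). This call held without each library in turn but not without both numbered 4 (adjusted p = 0.0872). Gfi1, which represses Il7r in mouse lymphocytes, was at 1.91 to 4.01 FPKM in H1 to H4 and 2.67 to 5.47 FPKM in N1 to N4 and did not pass (adjusted p = 0.424).

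Across 20 other settings, the direction of each gene but Il9r was kept. Il2 and Il2ra passed in 17 of them, Il2rb in 13, Il15ra in 10 and Il2rg in 7, while Il4ra passed in 4, Il7r in 3 and Il9r and Il21r in none. The settings cover other scalings and filters, libraries left out and the recovered reads.

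**Figure D4:**
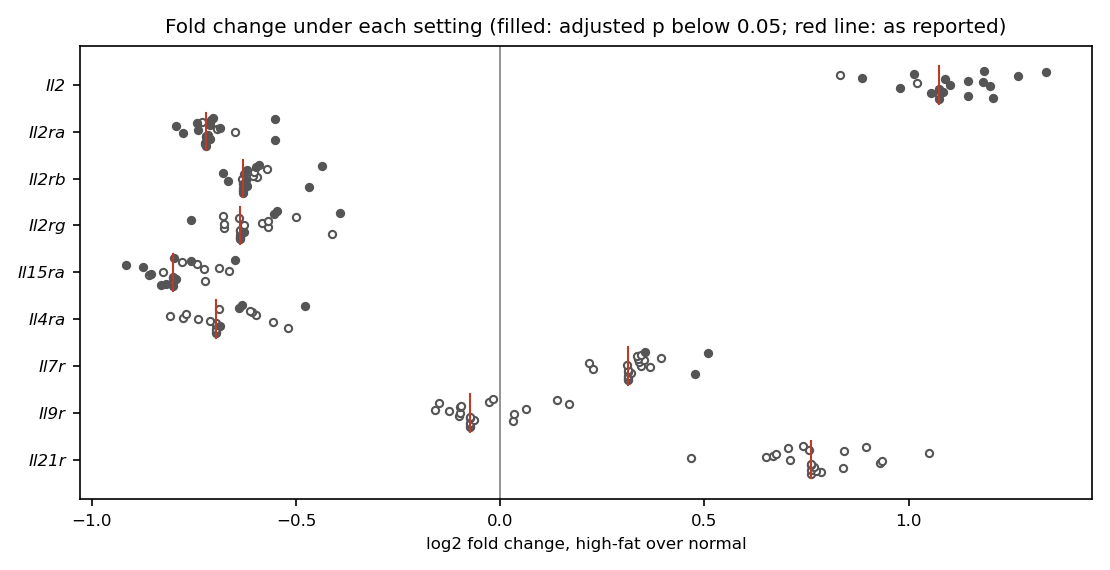
Log2 fold change, high-fat over normal diet, of each gene under 20 other settings and as reported (red line), 1 point per setting. Filled points passed at an adjusted p below 0.05. All points of Il2, Il7r and Il21r lie above 0, all points of the interleukin-2 and interleukin-15 receptor chains and of Il4ra lie below 0, and those of Il9r lie on both sides.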

How the data were processed

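RNA of sorted visceral fat ILC2s had been extracted with Trizol, and SMART-Seq HT cDNA and transposase libraries were prepared, per the labels' protocols. Such libraries do not mark the strand. HISAT2, Cufflinks and mm10 are named in the submitters' processing notes, and no version or annotation is stated. Per the file headers, the authors deposited FPKM. In 14605 genes they are below 0, and these were left out of the fits. No member is among them.

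The values carry a factor of 0.863 to 1.18 that repeats every 10 rows of the table. Dividing it out gave whole reads (relative tolerance 1e-06) for all 24107 genes above 0. The 66566 values below 0 were whole multiples of 1 read (tolerance 1e-04), and reads of genes that overlap members were recovered from them. Both kinds make up the depth. The main test used the values as deposited. With the factor divided out, the same 5 members passed and Il4ra with them.

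Genes with at least 1 FPKM in 4 of 8 libraries were tested with limma 3.58.1 (R 4.3.3) on log2(FPKM + 1), with diet as the only term, trend and robust eBayes, two-sided p-values and Benjamini-Hochberg adjustment at 0.05. Fold changes on this scale are understated for low genes. The code was tested on simulated data. Alternatives were pseudocounts 0.1 and 0.5, no filter, quantile or median scaling, plain eBayes, a replicate block, libraries left out, and, chosen after seeing the data, the factor divided out, voom on recovered reads and both libraries numbered 4 left out. Members and lists were chosen with earlier results of these data known. Named were all members, up to 4 called genes of each list by size or the 2 most expressed where none was called, and the 3 genes most like Il2, Il2ra, Il2rb and Il2rg over the libraries, while other named genes were chosen after their values were seen. Positions are from GENCODE M21 (mm10) and promoters from RefSeq (GRCm38.p6).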

Additional observations from a re-analysis of the deposited data

Results flagged for a closer look

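In groups of 4 libraries, 5 of 76 groups examined held a library far from the other 3, where chance gives about 1 in 20. All 5 lay in the normal diet. Il7r was low in N1, at 149.9 FPKM, while the other normal-diet libraries held 193 to 199 FPKM. In recovered reads per 1000000 N1 was also the lowest for Il7r, at 424, with the others at 472 to 501. The search for such libraries used FPKM alone. In recovered reads the others were more spread, and N1 stood less apart from them. Il21r was high in N4, at 41.2 FPKM, with the others at 17.4 to 18.5 FPKM. Cd3e, Trac and Cd4 were high in the same library, at 11.6, 145 and 15.9 FPKM. Foxp3 was also highest there, at 11.5 FPKM. Without N4 the log2 fold change of Il21r was 1.05 (limma, adjusted p = 0.109), beside 0.76 with all libraries.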

How the results depend on the processing

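Every gene but Il9r kept its direction under all 20 other settings. The log2 fold change of Il9r was 0.032 under quantile normalization, 0.17 without both libraries numbered 2, 0.14 with voom on recovered reads, 0.032 without H2 and 0.064 without N2. With no filter on low values, where more genes were tested, Il2rb (-0.63), Il2rg (-0.64), Il15ra (-0.80) and Il2 (1.08) did not pass (limma, adjusted p = 0.0503, 0.112, 0.112 and 0.0577), so 0 of the 9 genes rose and 1 fell. Under quantile normalization Il2rg (-0.41) and Il15ra (-0.72) did not pass and Il7r (0.48) did, with 2 genes higher and 2 lower. With plain eBayes Il2rg (-0.64) and Il15ra (-0.80) did not pass, with 2 lower. Without both libraries numbered 2, Il2rg (-0.50) and Il15ra (-0.74) did not pass, with 2 lower, and without both numbered 4 none passed of Il2ra (-0.73), Il2rb (-0.57), Il2rg (-0.68), Il15ra (-0.78) and Il2 (0.83), with 0 higher and 0 lower. Il4ra passed at equal library medians (-0.69), with the recycled factor divided out (-0.64), with voom (-0.48) and with voom at equal medians (-0.63). Il7r passed with voom (0.51) and with voom at equal medians (0.35), with 2 genes higher in both. The called falls were smaller with voom, at -0.55 for Il2ra, -0.44 for Il2rb, -0.39 for Il2rg and -0.65 for Il15ra. With voom at equal medians they were -0.70, -0.59, -0.55 and -0.80 in the same order. Each passed in both settings. On the voom scale the median of all tested genes was 0.14, and Il4 (0.054) and Il13 (0.019) had the opposite sign. The cause of these changes was not tested, apart from the genes or libraries each setting adds or removes.

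Leaving out 1 library at a time gave log2 fold changes of -0.79 to -0.65 for Il2ra, -0.68 to -0.60 for Il2rb, -0.76 to -0.57 for Il2rg, -0.92 to -0.67 for Il15ra, 0.89 to 1.20 for Il2, -0.81 to -0.56 for Il4ra, 0.22 to 0.37 for Il7r, -0.16 to 0.064 for Il9r and 0.47 to 1.05 for Il21r. Of the 9 genes 0 to 1 were then called higher and 0 to 4 lower. The ratios to Il2rg lay at -0.21 to -0.02 for Il2ra, -0.060 to 0.081 for Il2rb, -0.23 to 0.12 for Il4ra, -0.29 to 0.011 for Il15ra, 0.80 to 1.11 for Il7r, 0.42 to 0.66 for Il9r, 1.14 to 1.69 for Il21r and 1.52 to 1.85 for Il2. The ratio of Il2rb was -0.12 without both libraries numbered 2 and -0.043 with the factor divided out. The ratio of Il21r did not pass without both libraries numbered 2 (1.34), nor that of Il9r without both numbered 4 (0.53).

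Over all tested genes, 112 were called higher and 216 lower. The numbers higher and lower were 41 and 89 with no filter, 19 and 36 without both libraries numbered 4, 185 and 386 with the factor divided out, 1117 and 388 with voom and 416 and 783 with voom at equal medians. The number higher was 226 under quantile normalization, 172 at equal medians and 242 without both libraries numbered 2, and the number lower was 132 with plain eBayes. Leaving out 1 library gave 40 to 255 higher and 84 to 281 lower. Of the pathway lists together, 2 genes were higher and 5 lower. These were 0 and 1 with no filter, 4 and 2 under quantile normalization, 1 and 2 with plain eBayes, 1 and 0 without both libraries numbered 4, and 4 and 12 with voom at equal medians. The number higher was 4 without both libraries numbered 2 and 4 with the factor divided out, and 11 with voom. Leaving out 1 library gave 0 to 5 higher and 1 to 5 lower.

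Over all tested genes, libraries with the same number did not deviate together (r = -0.07, -0.25, -0.07 and 0.08). Of 8 libraries, 0 correlated best with the library of its own number. This cannot settle whether the numbers pair the diets, which the labels do not state. In FPKM, H4 and N4 were each the lowest of their diet in Il15ra and the highest in Il21r, Foxp3, Cd4 and Cd3e. In RPM, N3 was just below N4 in Il15ra. For Il21r the adjusted p was 0.0558 with the replicate number as a block and 0.341 without it (limma). With the replicate number as a block, Il2rb (-0.63, adjusted p = 0.0608) and Il2rg (-0.64, adjusted p = 0.0819) did not pass, 2 of the 9 genes were lower, 113 of all tested genes and 1 of the pathway genes. Depth limits Il2 most, since it rests on 39 to 173 reads per library.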

Other observations

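Reads were also recovered for Gm37881, whose deposited values are below 0 and which was not among the genes fitted. It is an annotated transcript of unconfirmed status that lies inside Il2ra on the same strand without sharing exon bases (chromosome 2, 11683126 to 11683546, mm10). It had 370, 262, 350 and 364 reads in H1 to H4 and 537, 477, 499 and 562 reads in N1 to N4. In reads per 1000000 recovered reads (RPM) this was 26.0 ± 2.46 on the high-fat diet and 37.4 ± 4.88 on the normal diet (SD, n = 4 each), without overlap (exact permutation test, two-sided, p = 0.0286, the smallest that 4 against 4 libraries allow). The ratio of the diets was 0.695 for Gm37881 and 0.687 for Il2ra on the same scale. The transcript was chosen after its values were seen.

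Il2rg varied less in RPM than in the deposited values. Its coefficient of variation was 1.77% on the high-fat diet and 4.26% on the normal diet in RPM, beside 10.3% with high-fat feeding and 16.9% with the normal diet in FPKM. In RPM it was at 1099, 1132, 1139 and 1142 in H1 to H4 and 1481, 1563, 1471 and 1410 in N1 to N4. The deposited values carry the recycled factor, which for Il2rg was 1.18 in N1 and 0.863 in N3, and RPM do not. This factor shifted the log2 fold change of Il2rg by -0.08. RPM and FPKM also differ in the scaling of the libraries.

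The genes whose log2 FPKM ran most like each of 4 of these genes over the 8 libraries were found by Pearson's r, as a description. They were Zfp282 (0.976), H2-Aa (0.971) and Cir1 (0.966) for Il2, Rab20 (0.988), Isy1 (0.985) and Furin (0.978) for Il2ra, Rnmtl1 (0.983), Tnfaip8 (0.981) and Zbtb16 (0.978) for Il2rb, and Gla (0.994), Prpf4 (0.989) and Rheb (0.987) for Il2rg. All points share the difference between the diets and the scaling of the libraries.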
